A study of Caenorhabditis elegans with 2 samples.

Results

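Small nucleolar RNA (snoRNA) genes of C. elegans were described for the presence and strength of MADF-9 binding. The members are the genes that Ensembl release 115 gives the biotype snoRNA on WBcel235, the assembly that ce11 names. They number 346 of 46890 annotated genes on the nuclear chromosomes. The biotype, not a measured value, decides which genes are members. Of these genes, 142 lay inside an intron of a protein-coding gene on the same strand, 27 lay inside an intron on the opposite strand, 53 overlapped an exon or an edge of a protein-coding gene, and 124 were free-standing. The annotation names most of them by their clone and does not give the RNA that each one guides.

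MADF-9 is a member of a protein family named for its MADF domain, a Myb-related DNA-binding fold. Its binding was mapped by chromatin immunoprecipitation and sequencing (ChIP-seq) with an antibody against GFP. The single group was the strain RW12324, whose madf-9 gene on chromosome IV carries a CRISPR insertion of TY1, EGFP and 3xFLAG, in 2 biological replicates of whole larvae. The larvae were at the L4 stage, 48 hours after starved L1 larvae, and chromatin was sonicated to 200 to 800 bp. Per the labels, all binding was therefore that of a tagged protein in 1 strain. The labels name a control library, which was not used here, and no comparison with it or with an untagged worm was made. Whether the authors' peak calling used that control is not known here. Whole worms were used, so binding in more cells and stronger binding per cell cannot be told apart. The labels call the replicates biological and do not say how the cultures were kept apart.

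SnoRNAs guide chemical changes in other RNAs, above all in ribosomal RNA. Those with boxes C and D direct 2′-O-methylation, and those with boxes H and ACA direct the change of uridine to pseudouridine. Many snoRNA genes of animals sit in introns and are released from the spliced intron of their host, while others have a promoter of their own. Transfer RNA (tRNA) genes, a class of short genes read by RNA polymerase III, carry 2 promoter elements inside the gene, box A and box B. The gene classes below are described beside each other because the annotation lists them in the same way.

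Sequence around the summits is shown first, since the letters just before the snoRNA genes are one of the patterns described below. Each line gives the 121 bases from 60 before to 60 after the summit, the peak's highest point, 5′ to 3′ on the strand of the snoRNA gene, from the RefSeq copy of WBcel235. Capitals mark either of 2 pairs of words. The first pair is TGGCNNA followed 20 to 80 bases later by GTTCNA, letters that belong to boxes A and B of tRNA genes, and it is called the box A/B letters below. The second is GGAACCC followed 4 to 8 bases later by TGTCG, called the snRNA-type letters, because small nuclear RNA (snRNA) genes held it more often than the other classes counted here. T03F7.8 (chrV:11314144-11314264, plus strand), W03C9.9 (chrII:11960760-11960880, plus), Y43F8C.22 (chrV:19643153-19643273, minus), T06C12.16 (chrV:15873919-15874039, minus) and F32E10.10 (chrIV:7574018-7574138, plus) show the box A/B letters at strong peaks. B0334.12 (chrII:11484740-11484860, plus) carries them on the other strand, and ZK994.7 (chrV:8500501-8500621, plus) carries neither pair. The choice of lines favours the letters: of the 25 snoRNA genes with the highest signal, 10 had the box A/B letters before the gene and 14 had neither pair.
T03F7.8: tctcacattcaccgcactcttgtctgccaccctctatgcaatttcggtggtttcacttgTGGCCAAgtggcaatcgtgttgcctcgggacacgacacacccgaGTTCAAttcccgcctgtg
W03C9.9: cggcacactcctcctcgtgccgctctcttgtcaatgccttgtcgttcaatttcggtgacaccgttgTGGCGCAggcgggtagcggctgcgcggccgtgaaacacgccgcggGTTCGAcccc
Y43F8C.22: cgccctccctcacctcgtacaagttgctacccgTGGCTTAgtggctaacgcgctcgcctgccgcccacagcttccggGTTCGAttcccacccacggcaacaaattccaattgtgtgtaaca
T06C12.16: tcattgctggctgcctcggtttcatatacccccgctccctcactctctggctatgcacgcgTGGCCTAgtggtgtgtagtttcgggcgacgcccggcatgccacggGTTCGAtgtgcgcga
F32E10.10: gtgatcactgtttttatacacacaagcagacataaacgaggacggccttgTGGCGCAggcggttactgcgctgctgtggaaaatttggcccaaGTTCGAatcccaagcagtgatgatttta
B0334.12: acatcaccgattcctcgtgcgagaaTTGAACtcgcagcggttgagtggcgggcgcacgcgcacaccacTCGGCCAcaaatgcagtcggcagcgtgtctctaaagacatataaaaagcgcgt
ZK994.7: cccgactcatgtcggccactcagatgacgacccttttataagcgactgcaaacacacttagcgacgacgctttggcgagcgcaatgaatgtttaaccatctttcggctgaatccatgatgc
The snRNA-type letters are shown at a pair of weaker peaks, those of smy-2 (chrIV:9511477-9511597, minus) and C16D9.11 (chrV:8228958-8229078, minus).
smy-2: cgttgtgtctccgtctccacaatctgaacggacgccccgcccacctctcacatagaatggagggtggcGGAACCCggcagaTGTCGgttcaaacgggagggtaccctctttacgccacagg
C16D9.11: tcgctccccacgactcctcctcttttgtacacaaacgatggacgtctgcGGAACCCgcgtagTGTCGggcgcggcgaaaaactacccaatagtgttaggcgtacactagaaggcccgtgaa
For contrast, T24H7.6 (chrII:6248627-6248747, plus strand) has the box A/B letters and no summit, and its line runs from 90 bases before to 30 bases after its 5′ end.
T24H7.6: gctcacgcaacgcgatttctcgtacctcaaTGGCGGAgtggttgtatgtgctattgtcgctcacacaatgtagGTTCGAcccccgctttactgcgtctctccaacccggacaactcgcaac
None of these windows overlapped an exon of a protein-coding gene.

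About 1 in 5 snoRNA genes carried a MADF-9 peak, and the peak usually sat just before the gene. A gene is called bound where the summit of a peak in the set called between the replicates lay in the gene body or within 250 bp on either side. By that measure 71 of 346 snoRNA genes were bound, or 20.5% (95% Wilson interval 16.6 to 25.1%), where 4.30% of all annotated genes were bound. All annotated genes include 15363 Piwi-interacting RNA (piRNA) genes, of which 13 were bound (0.0846%). These genes lower the 4.30% and the other shares of all genes given below. In replicate 1's own set 61 snoRNA genes were bound (17.6%, 14.0 to 22.0%) against 2.88% of all genes. In replicate 2's own set 55 were bound (15.9%, 12.4 to 20.1%) against 2.48% of all genes. The share of bound snoRNA genes was above that of all genes in each of the 3 sets, with the interval clear of the value for all genes.

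Gene length does not enter the next count, which used the same 300 bp for every gene, from 250 bp before to 50 bp after the 5′ end. In it 64 snoRNA genes held a summit (18.5%, 14.8 to 22.9%), against 2.06% of all genes. With the gene body and flanks, tRNA genes were bound more often than snoRNA genes, at 55.7% (51.8 to 59.6%) of 612 genes. SnRNA genes were bound at 13.2% (8.39 to 20.1%) of 129 genes, and their interval overlapped that of the snoRNA genes. Protein-coding genes, at 5.01% (4.72 to 5.32%) of 19973, and microRNA (miRNA) genes, at 3.45% (1.82 to 6.42%) of 261, lay near the share of all genes. Genes of the biotype ncRNA were bound at 6.74% (6.20 to 7.32%) of 7764. The intervals cover counting error alone, genes that lie close together are not independent, and no test across genes was run.

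**Figure D1:**
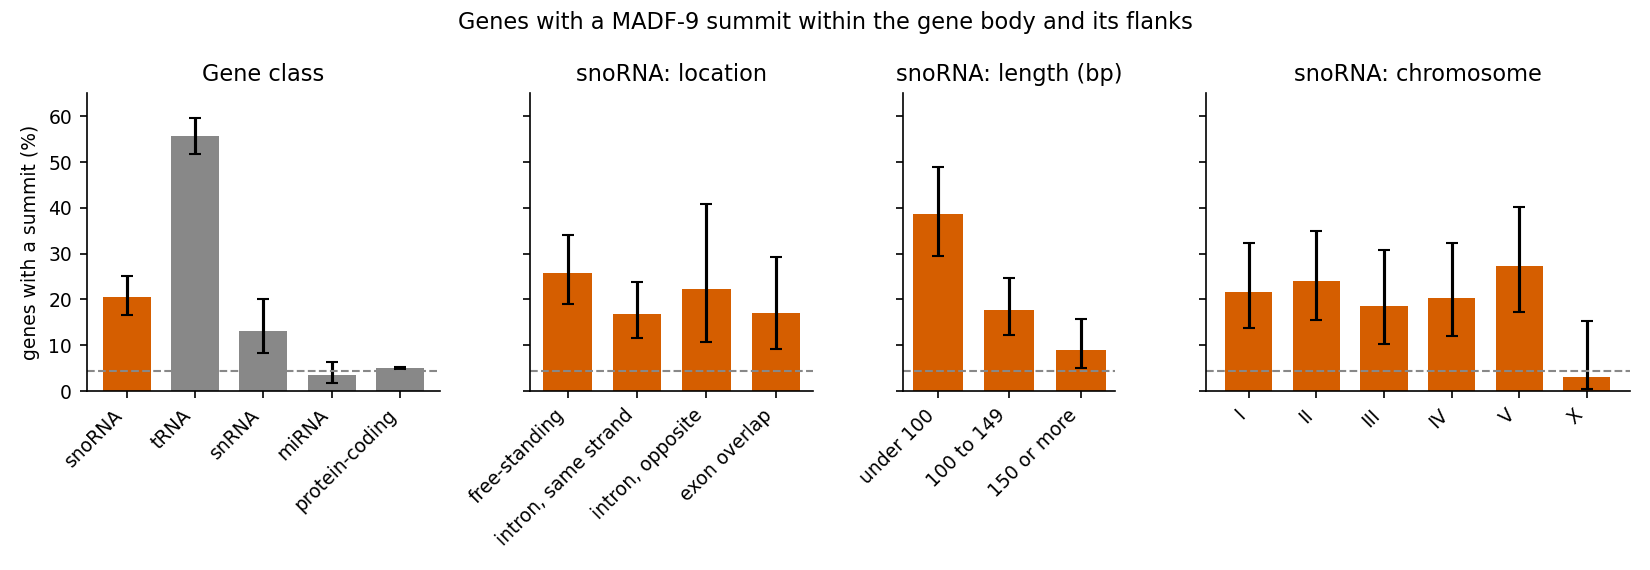
Percent of genes with a summit in the set called between the replicates, in the gene body or within 250 bp of it, by gene class and, for snoRNA genes, by location, length and chromosome. Bars are shares, error bars are 95% Wilson intervals and the dashed line is the 4.30% of all annotated genes, piRNA genes included. The snoRNA share of 20.5% lies between those of tRNA and miRNA genes, falls from 38.7% to 9.01% with length, and is 3.03% on chromosome X.

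The windows of the 71 bound genes held 70 distinct summits of the 1637 peaks in the set, since C51F7.3 and C51F7.4 shared 1 summit. Of the bound genes, 46 also held a summit in the own set of both replicates, 20 in that of 1 replicate, and 5 in neither. Of the 275 unbound genes, 271 held none in either replicate's own set, 4 held one in 1 replicate, and 0 did in both. In 65 of the 70 summit windows of 121 bases every word of 31 bases occurred once in the genome. The lowest share of such unique words was 67.0%, at Y48A6C.10, so reads could in part be shared with another place there.

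The strength of the peaks is given by the authors' signal, a value per peak whose scale is not stated, so strength is compared within a list. Where values of the replicates are set beside each other, a difference can in part be one between the lists as wholes. The median over all ranked regions was 17.2 in replicate 1 and 15.9 in replicate 2. The 70 snoRNA peaks had a median signal of 122 (quartiles 99.7 to 182) in the set called between the replicates, and ran from 62.1 to 324. The 1567 other peaks of that set had a median of 87.7 (quartiles 70.6 to 120), those within 250 bp of a tRNA gene 101, and those near neither class 85.1. Of the snoRNA peaks 57 of 70 lay at or above the median signal of the set, and 8 were among its 100 highest. The quartile ranges of snoRNA and other peaks overlapped.

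The strongest snoRNA peak lay before F59C6.15, a free-standing gene on chromosome I (10516978 to 10517150, minus strand). Its signal was 171 in replicate 1, 143 in replicate 2 and 324 in the set called between the replicates, where it ranked 26. It was the highest snoRNA gene in each replicate. The summit lay 76 bp before the gene, inside a promoter of a protein-coding gene, and the snRNA-type letters stood before it.

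ZK994.7 (chromosome V, 8500579 to 8500645, plus strand) followed, inside an intron of pxn-1, a homologue of the extracellular matrix enzyme peroxidasin. Its signal was 141 in replicate 1, 136 in replicate 2 and 280 in the set between replicates. Its replicates were nearly equal, and its summit lay 18 bp before the snoRNA gene, in no protein-coding promoter. T03F7.8 (chromosome V, 11314258 to 11314332, plus strand), on the opposite strand inside an intron of the cuticlin-like gene cutl-18, had signals of 142, 118 and 266 in the same order. W03C9.9 (chromosome II, 11960898 to 11960959, plus strand), free-standing and in the box C/D class by the rule given below, had 130, 121 and 251. Y43F8C.22 (chromosome V, 19643050 to 19643187, minus strand), in the H/ACA class by that rule and inside an intron of Y43F8C.7, had 128, 118 and 251. These 3 genes had the box A/B letters printed above, and replicate 1 was the higher in each.

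C51F7.3 (chromosome V, 12303708 to 12303783) and C51F7.4 (12303599 to 12303693) are neighbours on the plus strand within frm-7, a gene of a FERM-domain protein. Their shared summit had a signal of 106 in replicate 1, 132 in replicate 2 and 240 in the set between replicates. The summit lay 37 bp inside C51F7.4, counted from its 5′ end, and 72 bp before C51F7.3, so it cannot be assigned to 1 of them. Y23H5B.10, free-standing on chromosome I (2514168 to 2514311, minus strand), had signals of 136, 110 and 240, with its summit 51 bp before the gene.

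B0334.12 and F54E7.10 held strong summits that did not lie just before the gene. B0334.12 (chromosome II, 11484683 to 11484752, plus strand), inside an intron of the potassium channel gene twk-5 on the opposite strand, had signals of 120 in replicate 1, 107 in replicate 2 and 228 in the set between replicates. Its summit lay 117 bp downstream of its 5′ end, past the end of the 70 bp gene, beside the reversed box A/B letters shown above. F54E7.10 (chromosome III, 5679378 to 5679509, plus strand), inside an intron of the ribosomal protein gene rps-12, had signals of 90.8, 118 and 203. Its summit lay 248 bp before the snoRNA gene, near the edge of the window and inside a protein-coding promoter.

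The next members by signal in the set between replicates were T06C12.16 at 203, T19B4.8 at 196, D1046.6 at 193, Y75B12B.12 at 191 and C10C6.8 at 190. T06C12.16 (chromosome V, 15873855 to 15873926, minus strand) was higher in replicate 2, at 114, than in replicate 1, at 85.4. T19B4.8 was higher in replicate 1, at 121 against 73.4. C10C6.8, inside an intron of the P-type ATPase gene catp-8, had 129 in replicate 1 and 60.04 in replicate 2. Its ratio of replicate 1 to replicate 2, 2.16, was the highest of all bound members. C10C6.8 was the 1 gene of the 25 with the highest signal that held no summit in replicate 2's own set. At the other end F39B2.14 had 40.9 in replicate 1 and 72.4 in replicate 2, a ratio of 0.565.

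The remaining genes of the highest 25 were T02E1.9, C41C4.11, F55A11.10, C53B7.8, T27A3.9, ZK484.9, F30H5.4, F32E10.10, Y38F2AR.14 and ZK265.10, whose signals ran from 187 down to 165. C53B7.8 was the single bound snoRNA gene on chromosome X, with 77.8 in replicate 1, 99.9 in replicate 2 and 183 in the set between replicates. Among the 25 genes, 17 were shorter than 100 bp, 11 were free-standing, 8 lay in an intron on the same strand and 3 in an intron on the opposite strand, and 3 overlapped an exon or an edge of a protein-coding gene. The summit lay 1 to 100 bp before the gene in 21 of the 25. Replicate 1 was the higher in 17 of them.

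**Figure D2:**
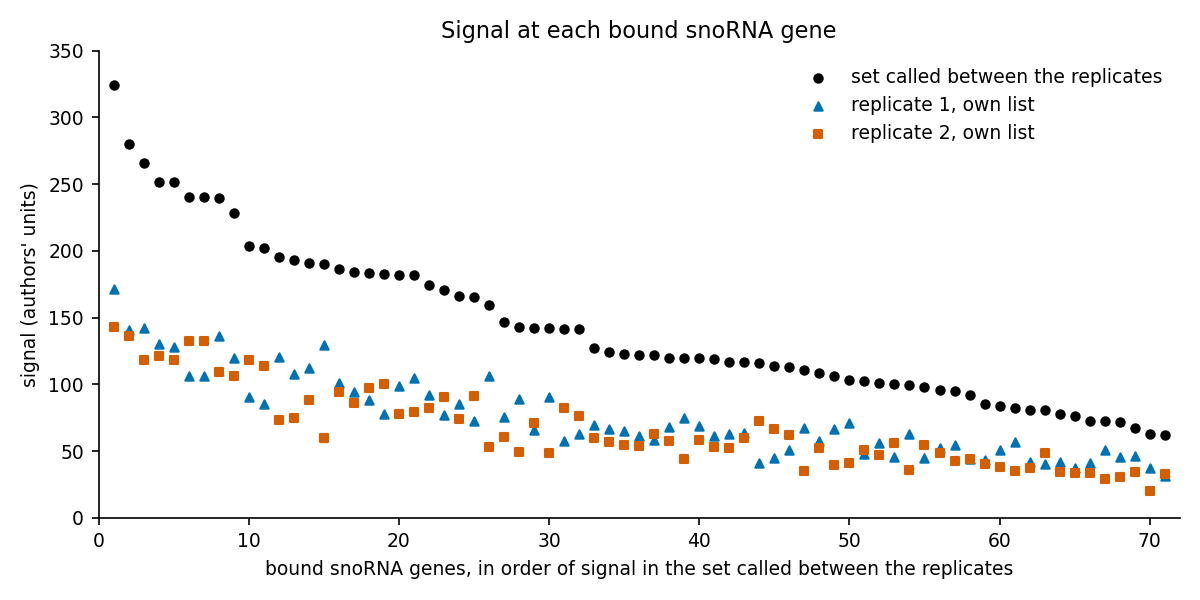
Signal in the authors' units at each of the 71 bound snoRNA genes, ordered by the signal in the set called between the replicates (circles), with the value in replicate 1 (triangles) and replicate 2 (squares). The set value falls from 324 to 62.1, and the values of the replicates run from 31.3 to 171 and from 20.1 to 143.

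The weakest bound members were F07A11.15, C16D9.11 and T19E7.29. F07A11.15, which overlaps an exon of din-1, had signals of 46.2 in replicate 1, 34.1 in replicate 2 and 67.2 in the set between replicates. C16D9.11, inside an intron of rol-3 and with the snRNA-type letters, had 37.3, 20.1 and 62.7. T19E7.29 (224 bp, free-standing) had 31.3, 33.1 and 62.1, with its summit 142 bp inside the gene. Replicate 2's value for C16D9.11 and replicate 1's for T19E7.29 were the lowest of any bound snoRNA gene in those lists.

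The 5 unbound members whose lower replicate signal was highest are given next, a choice that favours equal replicates. F26D10.24, inside an intron of the HSP70 chaperone gene hsp-1, had signals of 30.6 in replicate 1 and 30.2 in replicate 2. Its irreproducible discovery rate (IDR), a measure of how poorly a region recurs between replicates, was 0.0102. The highest IDR among regions with the set's lowest score or above was 0.01002. F30A10.16 (29.8 and 29.6), T24H7.6 (29.2 and 28.9) and C26C6.13 (28.7 and 33.8) had an IDR of 0.0123, 0.0146 and 0.0111. Y55F3BR.9 differed from these, with 56.0 in replicate 1 and 29.7 in replicate 2 and an IDR of 0.622. D2021.6 (41.1 and 25.5, IDR 0.0104) and C36E8.11 (27.8 and 40.6, IDR 0.0108), named after their values were seen, lay near the threshold with unequal replicates. C04G6.12, also named after its values were seen, had the box A/B letters, a signal of 90.7 in replicate 1 and no region in replicate 2. Unbound here refers to the main set alone. The other thresholded set for both replicates together held a summit at F26D10.24, Y55F3BR.9, D2021.6, C36E8.11 and C04G6.12. It held none at F30A10.16, T24H7.6 and C26C6.13.

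The order of the bound snoRNA genes by signal was similar in the replicates. Bound genes were kept by the IDR, which favours regions that rank alike in both replicates, so that choice in part fixes a higher value for them. Over 71 bound genes, Spearman's rho between the replicates was 0.758 and Pearson's r of the log2 signals 0.771. Over the 88 unbound genes with a region in both ranked lists rho was 0.221, and over all 159 genes it was 0.823. These are descriptions across genes, which share the annotated windows and the 2 libraries. The median signal of bound genes was 66.7 (range 31.3 to 171) in replicate 1 and 58.3 (20.1 to 143) in replicate 2, and 50 of the 71 were higher in replicate 1. The replicate lists were made separately, and the depth of the libraries is unknown. Replicate 1's list also had the higher median over all ranked regions, at 17.2 against 15.9, so the count of 50 is not particular to snoRNA genes. A lower region was common at unbound genes, with 137 of 275 holding one in replicate 1 and 132 in replicate 2.

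**Figure D3:**
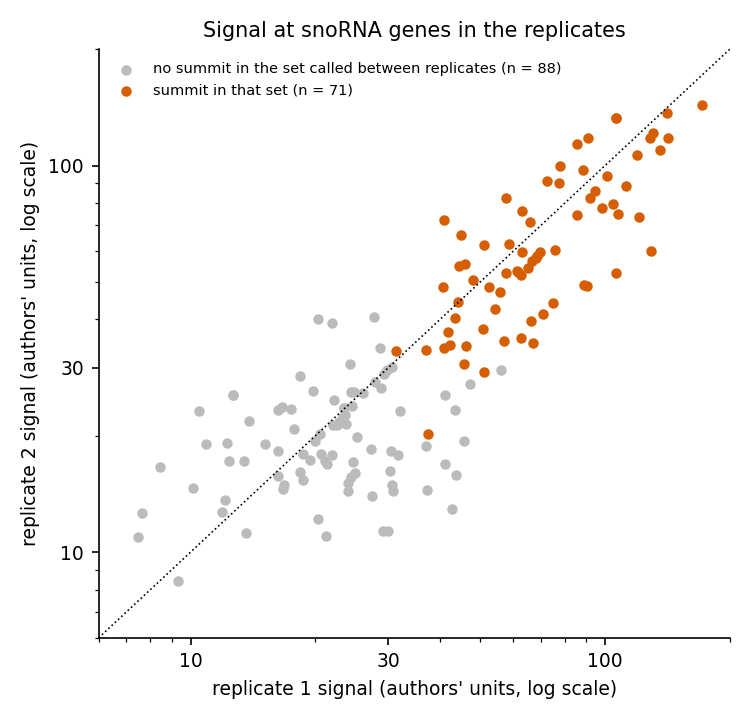
Signal in replicate 1 against replicate 2, in the authors' units on log axes, at 159 snoRNA genes with a region in both ranked lists. Points are genes, coloured by whether the set called between the replicates holds a summit, and the dotted line marks equal values. Bound genes, with medians of 66.7 and 58.3, lie above most unbound ones, with medians of 22.7 and 19.1.

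Summits gathered just upstream of the annotated snoRNA. Counted from the annotated 5′ end of the nearest member, with negative values upstream, the median position of the 70 summits was -45.5 bp (quartiles -62.75 to -16.5, range -248 to 291). A summit 1 to 100 bp upstream was found in 51 of 70 cases (72.9%), more than 100 bp upstream in 7, inside the gene in 8 and downstream of it in 4. The upstream summits within 100 bp had a median signal of 141, those farther upstream 96.1, those inside the gene 104 and those downstream 97.7. Ranges overlapped, at 62.7 to 324 for the first class and 62.1 to 240 for those inside the gene.

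The quartiles of the position overlapped between locations. The median was -40.5 bp for 32 summits at free-standing genes, -49 bp for 29 at intron genes and -56 bp for 9 at genes that overlapped an exon or an edge. Quartiles were -53.5 to -12.5 bp for free-standing and -63 to -23 bp for intron genes. Chromatin of 200 to 800 bp was sequenced, so a summit does not fix the bound base.

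**Figure D4:**
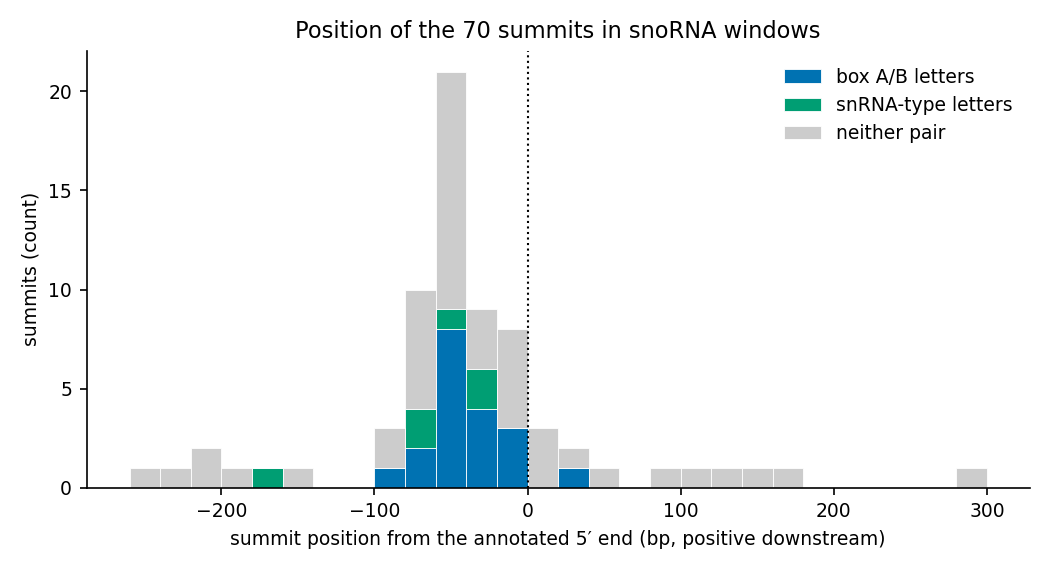
Count of summits in snoRNA windows by position from the annotated 5′ end in bins of 20 bp, stacked by the pair of words found from 250 bp before to 50 bp after that end. The dotted line marks the 5′ end, and 51 of the 70 summits lie 1 to 100 bp upstream of it.

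Free-standing snoRNA genes were bound somewhat more often than those in introns, with intervals that overlapped, and the order turned where members with a protein-coding promoter in the window were left out. Of 124 free-standing genes 32 were bound (25.8%, 18.9 to 34.2%), and of 169 intron genes 30 were (17.8%, 12.7 to 24.2%). Among intron genes 24 of 142 on the strand of their host were bound (16.9%, 11.6 to 23.9%) and 6 of 27 on the opposite strand (22.2%, 10.6 to 40.8%). Without the members whose window overlaps a protein-coding promoter, 14 of 74 free-standing (18.9%) and 19 of 94 intron genes (20.2%) were bound. Genes that overlapped an exon or an edge were bound in 9 of 53 cases (17.0%, 9.20 to 29.2%). Median signals of bound genes were 115 (62.1 to 324) for free-standing and 142 (62.7 to 280) for intron genes.

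Within host genes, introns that hold a snoRNA gene carried a summit more often than the others. The 151 host genes had 168 introns with a snoRNA gene inside, of which 34 held a summit (20.2%, 14.9 to 26.9%). Their 1217 other introns held one in 12 cases (0.986%, 0.565 to 1.72%). Replicate 1's own set gave 28 against 4 introns, and replicate 2's 26 against 5. The intervals were apart in all 3 sets.

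Introns with a snoRNA gene were longer, with a median of 464.5 bp against 137 bp. Per 100 kb of intron, there were 10.2 summits in introns with a snoRNA gene and 2.61 in the others. Among introns of 251.25 to 1526.25 bp, the quartiles of length of those with a snoRNA gene, 23 of 84 with and 2 of 415 without a snoRNA gene held a summit (27.4%, 19.0 to 37.7%, and 0.482%, 0.132 to 1.74%). Of the 30 bound intron members, 29 had their summit in an intron that holds a snoRNA gene, a count that the window of 250 bp around the gene in part fixes. In 7 of the 30 the host's own promoter, from 1000 bp before to 200 bp after a transcript start, held a summit. That summit can be the one counted for the snoRNA gene, since some of those lay in a protein-coding promoter. The share for hosts of unbound members is not given here, so this count has no background to be read against.

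Bound intron members had hosts of many kinds. C05D2.15 lay in an intron of madf-11, another gene of the MADF family, with signals of 106 in replicate 1, 52.9 in replicate 2 and 159 in the set between replicates. M106.6 lay in mix-1, which encodes a condensin subunit, with 89.2, 48.99 and 143. T08B2.13 lay in fars-1, which encodes a subunit of phenylalanyl-tRNA synthetase, with 90.6, 48.9 and 142. All 3 were higher in replicate 1. K11C4.6 in unc-70, the beta-spectrin gene, had 58.7, 62.8 and 122, and C27H6.5 in unc-41, a synaptic vesicle gene, had 66.0, 71.4 and 142. These last 2 genes had nearly equal replicates, and the 5 were chosen after their values were seen.

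Short snoRNA genes were bound most often. Of 93 genes under 100 bp, 36 were bound (38.7%, 29.4 to 48.9%), of 142 genes of 100 to 149 bp 25 were (17.6%, 12.2 to 24.7%), and of 111 genes of 150 bp or more 10 were (9.01%, 4.97 to 15.8%). The intervals of the shortest class were apart from those of both longer classes, although longer genes had the longer windows. Replicate 1's own set gave 35.5%, 15.5% and 5.41% in that order, and replicate 2's 31.2%, 13.4% and 6.31%. The length classes were chosen after the values were seen. The median length was 97 bp for bound and 133 bp for unbound genes.

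The order by length held for free-standing and for intron genes, and not in full for genes that overlapped an exon or an edge. Those were bound in 3 of 11 cases under 100 bp (27.3%), 3 of 24 at 100 to 149 bp (12.5%) and 3 of 18 at 150 bp or more (16.7%). Free-standing genes were bound in 17 of 30 cases under 100 bp (56.7%), 8 of 37 at 100 to 149 bp (21.6%) and 7 of 57 at 150 bp or more (12.3%). Intron genes were bound in 16 of 52 (30.8%), 14 of 81 (17.3%) and 0 of 36, which allows a share of up to 8.33% at 3 counts of the total (upper Wilson limit 9.64%). Median signals of bound genes were 145 under 100 bp, 119 at 100 to 149 bp and 98.5 at 150 bp or more. F59C6.15, the strongest of all, was 173 bp long, so the ranges overlapped.

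The intervals of the box classes overlapped, which does not show that the classes are bound alike. With TGATGA in the first 25 and CTGA in the last 25 bases, 15 genes were put in the C/D class, of which 4 were bound (26.7%, 10.9 to 52.0%). With ACA ending 2 to 4 bases from the 3′ end, 75 were put in the H/ACA class, of which 17 were bound (22.7%, 14.7 to 33.3%). The other 256 fitted neither rule, and 50 of them were bound (19.5%, 15.1 to 24.8%). The C/D rule is strict on letters and can leave members out. The H/ACA rule asks for no H box, so it can take in genes of other kinds. Most genes stay without a class, and the classes are by these letters only.

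On chromosome X, 1 of 33 snoRNA genes was bound (3.03%, 0.537 to 15.3%), and on the autosomes 70 of 313 were (22.4%, 18.1 to 27.3%). The autosomes ranged from 18.5% on chromosome III to 27.3% on chromosome V. Peaks were not scarce on X, which held 386 of the 1637. All annotated genes were bound at 8.54% (7.86 to 9.27%) on X and 3.67% (3.49 to 3.86%) on the autosomes. That share mixes gene classes that were bound at different rates. Among them are 15363 piRNA genes, bound at 0.0846%, and 612 tRNA genes, 276 of them on X. The part of this mix in the difference was not tested. For tRNA genes, at 61.6% (55.7 to 67.1%) and 50.9% (45.6 to 56.2%), and protein-coding genes, at 5.38% (4.60 to 6.29%) and 4.95% (4.64 to 5.29%), the intervals on X and the autosomes overlapped. Of the 33 snoRNA genes on X, 14 had a region in replicate 1's ranked list and 17 in replicate 2's, and unbound ones reached 41.1 and 30.6. The box A/B letters were before 2 of the 33. Genes of 150 bp or more, the length class bound least often, made up a larger part of the members on X than of all members. The share on X was not split by length or letters, and their part in it was not tested.

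Other annotated features lay near many members. No snoRNA window, bound or unbound, overlapped a tRNA or an snRNA gene. A protein-coding promoter overlapped the window of 35 of 71 bound (49.3%, 38.0 to 60.7%) and 109 of 275 unbound snoRNA genes (39.6%, 34.0 to 45.5%). The summit itself lay in such a promoter at 29 bound genes and outside at 42. Among genes with no promoter in the window, 36 of 202 were bound (17.8%, 13.2 to 23.7%), against 24.3% (18.0 to 31.9%) of the 144 with one. The summit lay in an annotated non-coding RNA gene at 13 bound snoRNA genes and in a pseudogene at 3. The part of these neighbours in the snoRNA peaks was not tested.

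The letters before the snoRNA genes differed between bound and unbound members. They were searched on both strands from 250 bp before to 50 bp after the 5′ end. GGTTCGA, the core of box B, was found at 14.1% of 71 bound and 3.64% of 275 unbound snoRNA genes and at 2.29% of all genes. TGGCNNAGT, the core of box A, was found at 18.3%, 5.45% and 2.38%. TATAAA was found in that window at 26.8% of bound, 24.4% of unbound and 37.4% of all genes. AGACGCAG was found at 4.23%, 2.91% and 2.24%. Within 60 bp of the summit AGACGCAG stood at 1 of 70 snoRNA summits and at 11.0% of the 1262 summits near neither a snoRNA nor a tRNA gene. TATAAA stood there at 9 of 70 snoRNA summits (12.9%, 6.91 to 22.7%), at 5.25% (3.25 to 8.35%) of 305 tRNA summits and at 4.12% (3.16 to 5.36%) of the 1262.

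Shorter and paired words, chosen after the values were seen, gave the same order. GTTCGA, which lies within GGTTCGA, was at 33.8% of bound, 10.9% of unbound and 10.3% of all genes. TGGCNNAG, which lies within TGGCNNAGT, was at 35.2%, 13.8% and 7.05%. The word of 8 bases with the largest excess in bound over unbound snoRNA genes was TGGCGCAG, a form of that word, in 14 of the bound, 4 of the unbound and 0.433% of all genes. Since these words were picked on the same genes, their shares are a description. Windows of bound genes were also richer in G and C, with a median of 44.0% (quartiles 41.0 to 46.5%) against 40.3% (35.3 to 44.3%), and its part in the word counts was not tested.

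The box A/B letters, TGGCNNA and GTTCNA together, were in the window of 19 of 71 bound (26.8%, 17.9 to 38.1%) and 15 of 275 unbound snoRNA genes (5.45%, 3.33 to 8.80%), and of 2.04% of all genes. Of the 34 snoRNA genes that have them, 19 were bound (55.9%, 39.5 to 71.1%). Of these 19, 10 were free-standing, 7 lay in introns and 2 overlapped an exon or an edge, and 10 belonged to the 25 genes of highest signal. Their median signal was 166 (83.6 to 266) in the set between replicates, 85.7 (50.7 to 142) in replicate 1 and 73.4 (34.7 to 121) in replicate 2. Bound genes with neither pair had 120, 63.1 and 58.1, with overlapping ranges.

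The box A/B letters stood at a steady place before bound snoRNA genes. In the direction of the gene, TGGCNNA began -72 to -50 bp from the 5′ end (median -56) and GTTCNA -27 to -5 bp (median -12) in all 18 bound genes with the pair on that strand. Among the 11 unbound genes with the pair on that strand TGGCNNA began -137 to -50 bp from the 5′ end, and in 7 of them it lay 45 to 80 bp before it. T24H7.6, printed above, is one of these 7, so the letters at that place were also present at snoRNA genes without a summit. T24H7.6 did carry the weaker regions described above, and of the 15 unbound genes with the pair 10 had a region in replicate 1's list, 10 in replicate 2's and 7 in both.

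The snRNA-type letters were rarer. GGAACCC followed by TGTCG was in the window of 6 of 71 bound (8.45%, 3.93 to 17.2%) and 8 of 275 unbound snoRNA genes (2.91%, 1.48 to 5.63%), of 0.175% of all genes, of 10.9% of snRNA genes and of 0 of 612 tRNA genes. No snoRNA gene had both pairs. Of the 14 snoRNA genes with these letters 6 were bound (42.9%, 21.4 to 67.4%), namely F59C6.15, F25H2.15, Y48A6C.10, smy-2, F47G4.9 and C16D9.11. Apart from F59C6.15 at 324 they ran from 101 down to 62.7, below the snoRNA median of 122. GGAACCC began -73 to -59 bp from the 5′ end in all 6, and within 45 to 80 bp before it in 6 of the 7 unbound genes with the pair on the strand of the gene.

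Genes with neither pair in the window from 250 bp before to 50 bp after the 5′ end made up most of the bound set. B0334.12 counts as one of them, since its reversed box A/B letters lay past that window. Of 298 such snoRNA genes 46 were bound (15.4%, 11.8 to 19.98%), still above the 4.30% of all genes and the 5.01% of protein-coding genes. Under 100 bp 21 of 75 of them were bound (28.0%, 19.1 to 39.0%), at 100 to 149 bp 17 of 121 (14.0%, 8.96 to 21.4%) and at 150 bp or more 8 of 102 (7.84%, 4.03 to 14.7%). The order by length was therefore also seen where neither pair was found. In the own sets of the replicates, genes with the box A/B letters were bound at 58.8% (42.2 to 73.6%) in replicate 1 and 44.1% (28.9 to 60.5%) in replicate 2, and those with neither pair at 12.8% and 12.1%. For the snRNA-type letters these sets gave 3 of 14 genes (21.4%, 7.57 to 47.6%) in replicate 1 and 4 of 14 (28.6%, 11.7 to 54.6%) in replicate 2, fewer than the 6 of the set between replicates.

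**Figure D5:**
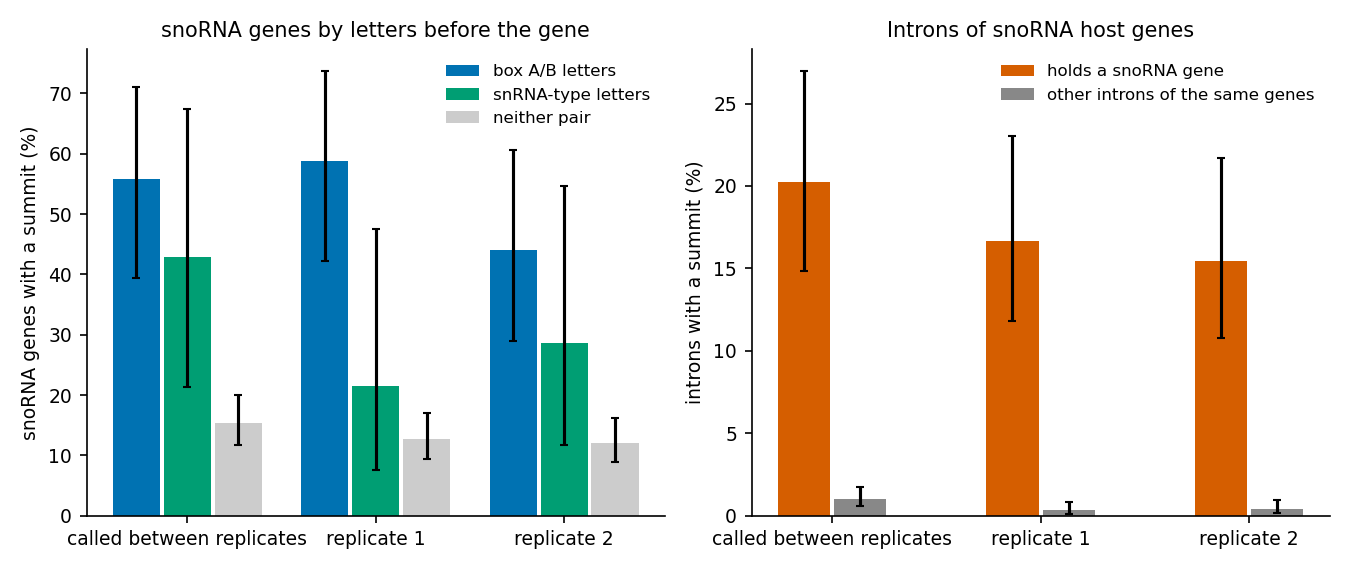
Left, percent of snoRNA genes bound by the pair of words before the gene, in the set called between the replicates and in each replicate's own set. Right, percent of introns of the snoRNA host genes that hold a summit, for introns with and without a snoRNA gene. Error bars are 95% Wilson intervals. Genes with the box A/B letters reach 55.9%, 58.8% and 44.1%, and introns with a snoRNA gene 20.2% against 0.986% of the others in the first set.

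The same letters were also counted at the summits themselves. Both pairs were chosen on the windows of these snoRNA genes, and most of the summits lay inside those windows. A higher share at snoRNA summits than at other summits is therefore in part fixed by that choice, and the count is a description. Within 60 bp of the summit the box A/B letters stood at 17 of 70 snoRNA summits (24.3%, 15.8 to 35.5%), at 23.0% (18.6 to 28.0%) of 305 summits within 250 bp of a tRNA gene and at 2.85% (2.07 to 3.92%) of the 1262 others. The snRNA-type letters stood at 6 snoRNA summits, at 0 of the tRNA summits and at 0.158% of the others. At Y48A6C.10, whose summit lay 173 bp before the gene, the letters at the summit were a different copy, on the other strand, from the one counted nearer the 5′ end. A match of letters is not a site, and the absence of a match says only that these letters are not in the window.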

How the data were processed

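Peaks came from 2 replicates of 1 group. The authors deposited peak lists on ce11, per the labels, as all ranked regions and as thresholded sets, for each replicate and for both together. The deposited signal is the caller's strength value per peak, on a scale that is not stated. The deposited score is a scaled IDR value, at least 830 in every thresholded set, and the deposited −log10 IDR was read from the ranked list of both replicates. The aligner and the peak caller were not given in the sources used here. No read counts were used, so depth is unknown and its effect on precision cannot be given.

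The set called between the replicates was the main one. A summit was the start plus the deposited offset, written 1-based. Genes came from Ensembl release 115 and sequence from RefSeq, both WBcel235. A member's signal was that of the strongest summit in its window. Introns were gene spans minus all annotated exons. Intervals are 95% Wilson intervals for counting error only. Counts used Python 3.11.15, pandas 2.3.3, numpy 2.4.6 and scipy 1.17.1, and figures matplotlib 3.10.9. The counting functions were tested on simulated data. Alternatives were other peak sets, single replicates, other windows and smaller sets of members or introns.

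Named genes are the 25 with the highest signal, the 3 bound genes with the lowest, and the 5 unbound genes whose lower replicate signal was highest. Sequence was to be printed for the 8 strongest members off 1 chromosome, of which 6 are shown. Those left out, C51F7.3 and F54E7.10, had neither pair of words. The others shown were chosen after their values were seen. The members, lists and words were chosen with earlier results of these data known.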

Additional observations from a re-analysis of the deposited data

How the results depend on the processing

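The 8 results were recomputed 77 times under the alternatives; 58 values stayed within the 95% interval of the reported value, 18 moved outside it and 1 changed sign. With no flank, 2.31% of all, 0.592% of intron and 4.03% of free-standing snoRNA genes were bound, the median signal was 104, and the median summit position became 29 bp, because the upstream summits are then left out by construction. With 1000 bp on each side, 27.2% of all and 26.6% of intron genes were bound. With 1 replicate left out, using the other's own set, 15.9 to 17.6% of all snoRNA genes, 14.8 to 15.4% of intron and 18.5 to 22.6% of free-standing genes were bound; the median position was -46 to -42 bp, introns with a snoRNA gene held a summit in 15.5 to 16.7% of cases and other introns of the hosts in 0.329 to 0.411%. The median signal was then 68.9 to 71.7, on the scale of single replicates. Other host introns held a summit in 0.247% of cases with the peaks above the median signal only, where fewer peaks are counted, and in 1.87% where only introns of 200 bp or longer were counted. Spearman's rho between the replicates was 0.758 for bound and 0.221 for unbound snoRNA genes, 0.745 with 1000 bp on each side and 0.726 with the region of largest overlap; the cause was not tested. Leaving out members near tRNA genes changed nothing, as there were none. No paired analysis was possible because there was 1 group. Depth is unknown, so a gene without a summit is not shown to be unbound.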
